A study of Mus musculus with 24 samples.

Results

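Cpa3, Prf1, Gzma, Gzmb, Srgn and Nkg7 encode proteins of the secretory granules of mast cells and of killer lymphocytes. The 6 genes were chosen by their measured levels over the 8 groups, which included the rise of Cpa3 in DNMAML cells and the opposite shifts of Cpa3 and Prf1 in ICN1 cells under GSI. Their levels and differences are therefore a description with no p-value printed, and whether the fit over all genes called a member is stated as part of that description, not as a test of it. They are 6 of 19938 genes in the table, each read by 1 probe set. Where arrays of groups are said not to overlap, the share of all genes that separate likewise was not counted.

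The RNA came from T6E, a Notch1-dependent line of murine T-cell leukaemia (T-ALL), so all groups share the same leukaemic background. Cells carried 1 of 4 constructs: MigR1, the empty vector; DNMAML, a dominant negative Mastermind-like that blocks the coactivator of the Notch complex; ICN1, intracellular Notch1, which acts without cleavage by gamma-secretase; or R1984A, an intracellular Notch1 that is defective in dimerization. Each was exposed for 6 h to DMSO or to compound E at 1 uM, which inhibits gamma-secretase and is written GSI here. The 8 groups, named MigR1-DMSO to R1984A-GSI, held 3 arrays each, 24 in all. The labels do not state whether the samples within a group were separate cultures, so the spread between them, which is all that the p-values measure, may be technical.

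Secretory granules of killer lymphocytes store perforin (Prf1), which opens pores in the target cell, and the serine proteases granzyme A (Gzma) and granzyme B (Gzmb), which enter through them. Serglycin (Srgn) is the proteoglycan core that binds and packs such proteases, and Nkg7 is a membrane protein of the granule. Carboxypeptidase A3 (Cpa3) is best known from mast cell granules and is also transcribed in early haematopoietic and thymic progenitors. Notch signals guide T-cell commitment, and in T-cell leukaemia an active Notch1 drives growth through the transcription factor Rbpj and Mastermind-like.

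The sequence upstream of the start site is shown for the 3 members called in DNMAML cells, since the constructs act on transcription. The 250 bases before each start come from RefSeq, GRCm38.p6, for which 6 of 6 members matched and Srgn has 2 windows. Capitals mark motifs that were searched on both strands, and no marked motif overlaps another in the windows printed.
Cpa3 upstream 250 bases, chr3:20242182-20242431, minus strand: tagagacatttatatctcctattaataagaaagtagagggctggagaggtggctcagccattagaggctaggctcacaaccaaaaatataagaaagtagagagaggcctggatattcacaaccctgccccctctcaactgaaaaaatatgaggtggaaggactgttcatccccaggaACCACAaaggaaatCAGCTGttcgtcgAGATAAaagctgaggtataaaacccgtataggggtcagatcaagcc
Prf1 upstream 250 bases, chr10:61297586-61297835, plus strand: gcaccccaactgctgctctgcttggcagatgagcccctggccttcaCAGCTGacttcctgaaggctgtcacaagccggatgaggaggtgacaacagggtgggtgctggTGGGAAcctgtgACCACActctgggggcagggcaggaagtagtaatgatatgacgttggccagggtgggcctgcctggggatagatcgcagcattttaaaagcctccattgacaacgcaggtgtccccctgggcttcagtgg
Gzma upstream 250 bases, chr13:113100982-113101231, minus strand: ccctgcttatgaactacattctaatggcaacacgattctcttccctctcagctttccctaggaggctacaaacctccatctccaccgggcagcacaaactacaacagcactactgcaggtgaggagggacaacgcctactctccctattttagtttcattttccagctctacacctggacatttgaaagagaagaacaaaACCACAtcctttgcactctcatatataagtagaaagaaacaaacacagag
For Rbpj the letters TGGGAA are in 21.6% of the 32851 windows of the table, and among the members only in that of Prf1, 142 to 137 bases before the start. For Gata factors the letters AGATAA are in 10.0% of windows, and among the members only in that of Cpa3, 46 to 41 bases before the start. The E-box searched was CAGCTG, which is in 13.0% of windows and in those of Cpa3, Prf1 and Srgn. For Runx factors the letters TGTGGT, or ACCACA on the other strand, are in 14% of windows, and in at least 1 window of each of the 6 members. These matches describe letters in a window, not bound sites, and the members were not chosen for them.

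The Runx letters of the other members are shown in stretches of 40 bases, since this motif alone is shared by all 6 genes.
Gzmb, chr14:56262405-56262444, minus strand: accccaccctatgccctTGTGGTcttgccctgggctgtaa
Gzmb, chr14:56262346-56262385, minus strand: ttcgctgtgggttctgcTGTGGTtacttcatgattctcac
Srgn, chr10:62507937-62507976, minus strand: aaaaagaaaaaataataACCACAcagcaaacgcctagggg
Nkg7, chr7:43437038-43437077, plus strand: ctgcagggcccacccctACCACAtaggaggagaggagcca
Gzmb holds the motif at 2 places of its window, 93 to 88 and 34 to 29 bases before the start, and Srgn only in the second of its windows.

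The deposited values are on the log2 scale, and the array medians, 3.90 to 4.18, serve as a reference for dim signals. Arrays of a group correlated across genes with r of 0.982 to 0.994, and no array column was identical to another. Nrarp, a direct Notch target, averaged 5.31 in MigR1-DMSO, 4.09 in MigR1-GSI, 4.07 in DNMAML-DMSO and 6.37 in ICN1-GSI, and Notch1 averaged 7.32 in ICN1-GSI against 5.66 in MigR1-GSI. Of the T-cell markers, 8 of 9 lay above the highest array median in all 8 groups. Of the defining mast cell markers, 0 of 7 did, and their mean per array lay between 2.78 and 2.99. Of the natural killer markers, 0 of 6 did, with a mean per array of 2.73 to 3.11. Neither list held a group mean above 4.01. B-cell and myeloid markers gave 0 of 5 and 0 of 7, erythroid markers 1 of 3 (Epor), and stromal or epithelial markers 3 of 6 (Col1a1, Col1a2 and Pecam1), whose part in the results was not tested. In bulk RNA, fewer cells that express a gene and less RNA per cell cannot be told apart.

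**Figure D1:**
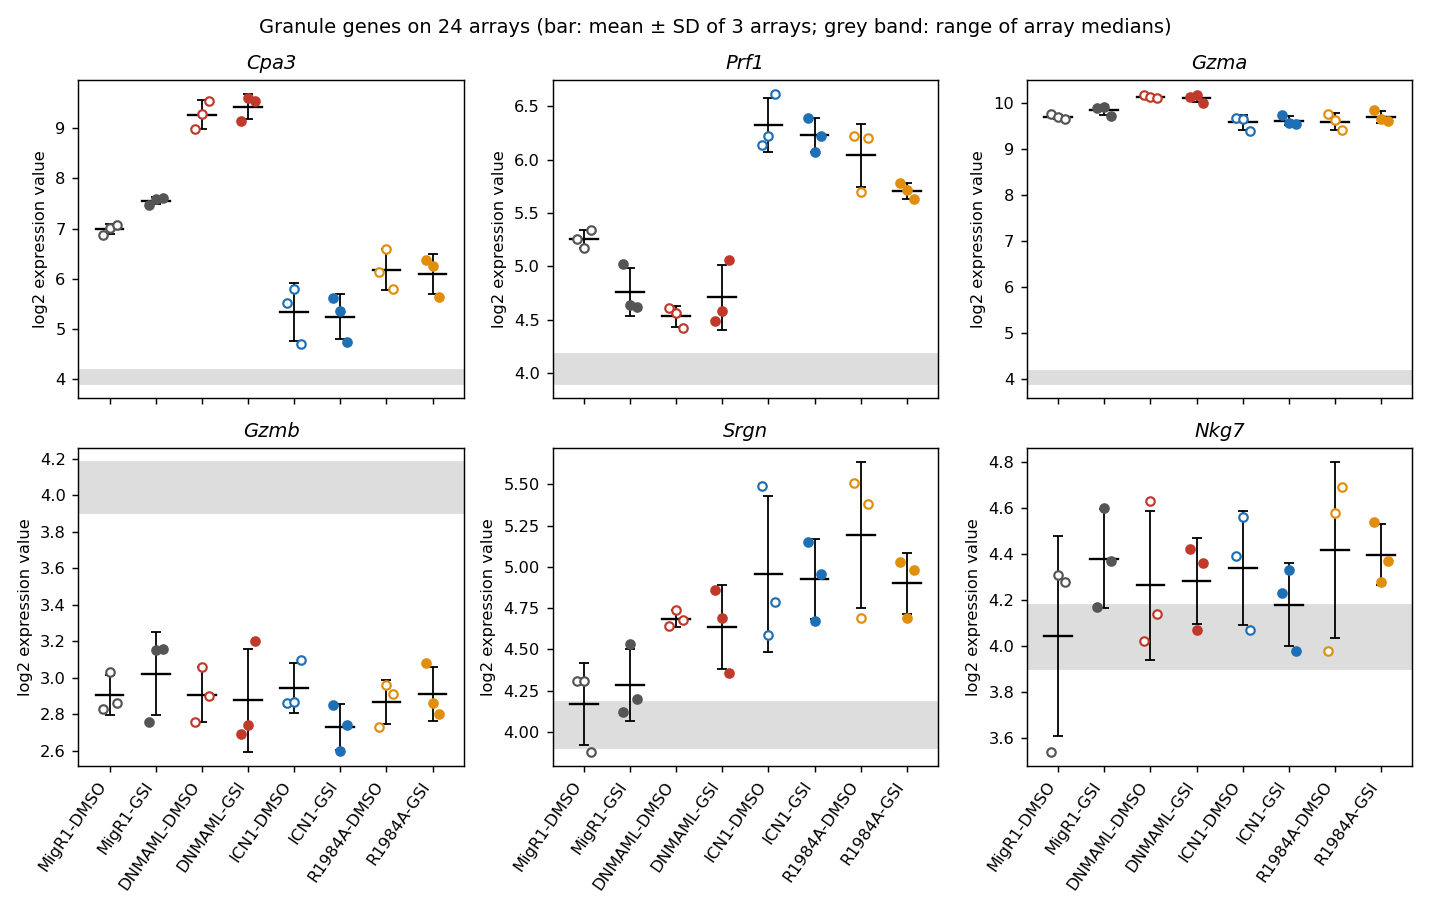
Log2 expression of the 6 members (1 panel each) in the 8 groups, with 1 point per array, open for DMSO and filled for GSI. Bars give the mean and SD of 3 arrays and the grey band the range of array medians, 3.90 to 4.18. Cpa3 runs from 5.23 in ICN1-GSI to 9.43 in DNMAML-GSI, while Gzmb stays between 2.60 and 3.20.

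Cpa3 was the member with the widest range. Its log2 values were 6.87, 7.02 and 7.08 in MigR1-DMSO, and 7.47, 7.60 and 7.61 in MigR1-GSI. In DNMAML cells they were 8.98, 9.29 and 9.55 in DMSO and 9.15, 9.60 and 9.55 under GSI. All 6 arrays of DNMAML cells lay above all 6 of MigR1 cells. In ICN1 cells they were 5.52, 5.79 and 4.69 in DMSO and 5.62, 5.35 and 4.74 under GSI. In R1984A cells they were 6.14, 6.60 and 5.79 in DMSO and 6.38, 6.26 and 5.63 under GSI. All 12 arrays with an intracellular Notch1 construct lay below all 6 arrays of MigR1 cells, and replicate 3 was the lowest in each of these 4 groups. From the lowest to the highest group mean the gene spanned 4.20 log2 units, 18.39-fold, and 3 genes of the table had a larger span. Along that order neighbouring groups did not overlap at 3 steps: R1984A-DMSO to MigR1-DMSO (0.82), MigR1-DMSO to MigR1-GSI (0.57) and MigR1-GSI to DNMAML-DMSO (1.71). At the other steps, between treatments of ICN1, R1984A or DNMAML cells and between ICN1-DMSO and R1984A-GSI, arrays overlapped.

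Prf1 was ordered nearly the other way. Its log2 values were 5.26, 5.17 and 5.34 in MigR1-DMSO and 5.02, 4.64 and 4.62 in MigR1-GSI. In DNMAML cells they were 4.61, 4.56 and 4.42 in DMSO and 4.49, 4.58 and 5.06 under GSI, so MigR1-GSI and DNMAML cells shared a range. In ICN1 cells they were 6.14, 6.22 and 6.61 in DMSO and 6.39, 6.07 and 6.22 under GSI. In R1984A cells they were 6.22, 5.70 and 6.20 in DMSO and 5.78, 5.71 and 5.63 under GSI. Every array with an intracellular Notch1 construct was above every MigR1 and DNMAML array. The group means spanned 1.79 log2 units, 3.47-fold, and 72 genes had a larger span. Neighbouring groups did not overlap between MigR1-GSI and MigR1-DMSO (0.50) and between MigR1-DMSO and R1984A-GSI (0.45). R1984A-DMSO, ICN1-GSI and ICN1-DMSO, the top of the order, overlapped.

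**Figure D2:**
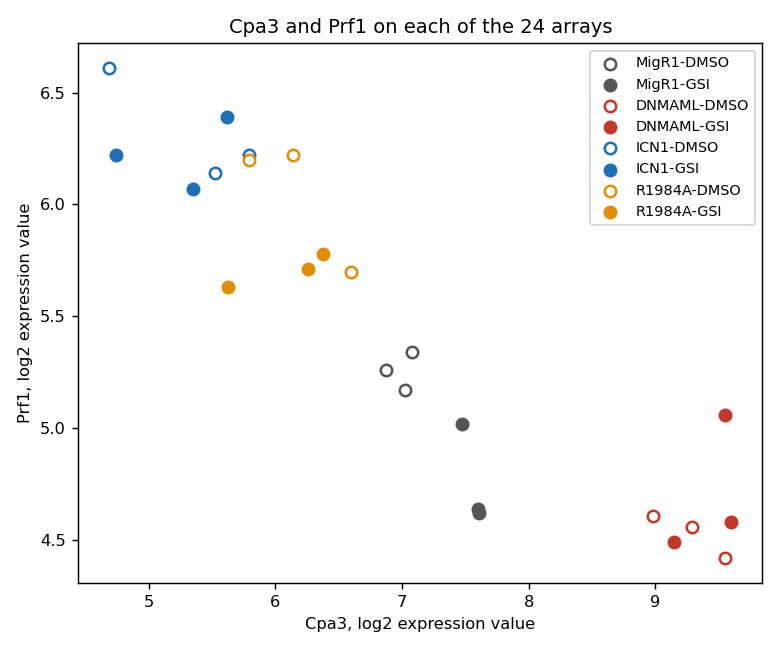
Prf1 against Cpa3, both in log2 units, with 1 point per array, open for DMSO and filled for GSI. DNMAML arrays lie at high Cpa3 and low Prf1, and ICN1 arrays at low Cpa3 and high Prf1, with the MigR1 and R1984A group means between them.

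Gzma was bright and moved little. Its values were 9.75, 9.69 and 9.65 in MigR1-DMSO and 10.17, 10.12 and 10.11 in DNMAML-DMSO, with no overlap. Under GSI they were 9.89, 9.92 and 9.71 in MigR1 cells and 10.12, 10.17 and 10.00 in DNMAML cells, again without overlap. The 12 arrays of ICN1 and R1984A cells lay between 9.39 and 9.85. The span over group means was 0.56 log2 units, and 2209 genes had a larger one.

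Gzmb was dim throughout. Its 24 values lay between 2.60 and 3.20, below every array median, and all neighbouring groups overlapped over a span of 0.29. At this signal the arrays give no order of the groups, and granzyme B stood apart from granzyme A in having no value above the reference for dim signals.

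Srgn was low to moderate. Its values were 4.31, 4.31 and 3.88 in MigR1-DMSO, 4.12, 4.53 and 4.20 in MigR1-GSI, 4.64, 4.74 and 4.68 in DNMAML-DMSO and 4.86, 4.69 and 4.36 in DNMAML-GSI. With an intracellular Notch1 construct they were 5.49, 4.59 and 4.79 in ICN1-DMSO, 5.15, 4.67 and 4.96 in ICN1-GSI, 5.51, 4.69 and 5.38 in R1984A-DMSO and 5.03, 4.69 and 4.98 in R1984A-GSI. Those 12 arrays all lay above all 6 MigR1 arrays, and in each of the 4 groups replicate 2 was the lowest. Neighbouring groups overlapped at every step of its order, whose span was 1.03, a span that 458 genes exceeded.

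Nkg7 was close to the reference for dim signals, with 8 of 24 arrays below 4.18. Its values ran from 3.54 to 4.31 in MigR1-DMSO and from 3.98 to 4.69 in R1984A-DMSO, with a span of 0.37 between group means. All neighbouring groups overlapped, so no order of the groups could be read from it.

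**Figure D3:**
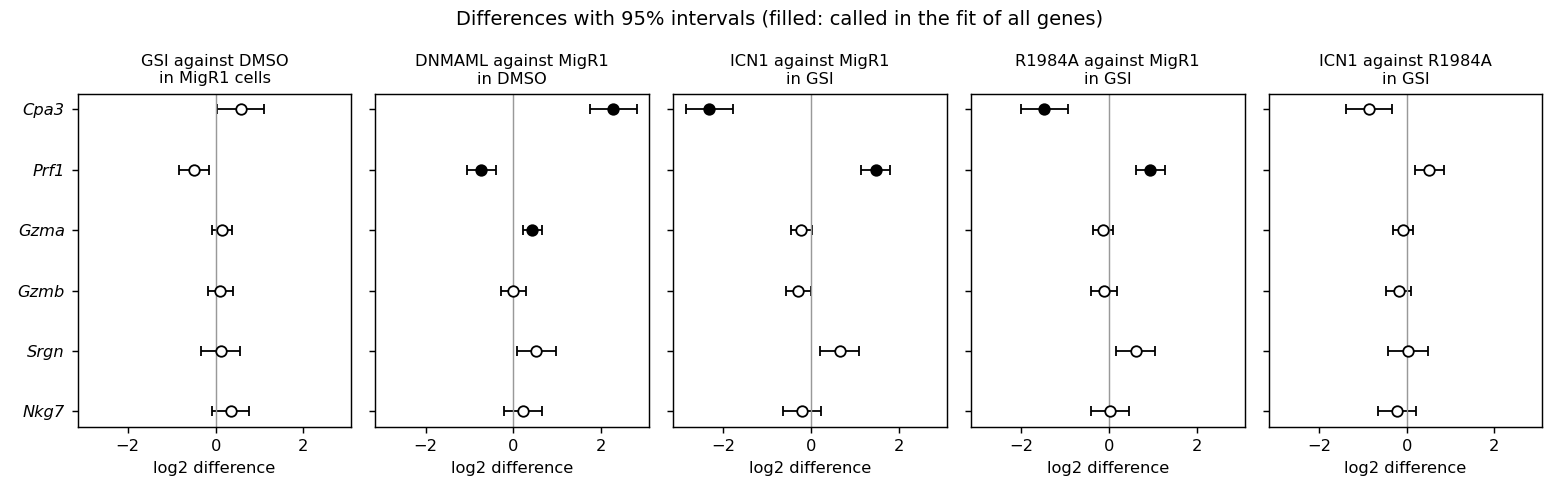
Differences of the 6 members between groups in log2 units, with bars of the 95% interval from the limma fit. Filled points were called and open points were not. Cpa3 and Prf1 are called in the same 3 of the 5 comparisons drawn, in opposite directions in each.

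The differences come from 1 limma fit over 19938 genes, and a gene was called at a Benjamini-Hochberg adjusted p under 0.05. In DNMAML against MigR1 in DMSO, 3 of 6 members were called, beside 1.94% of all genes, in a contrast that helped choose the members. Cpa3 was higher by 2.28 (SE 0.26), Gzma by 0.43 (SE 0.11), and Prf1 differed by -0.73 (SE 0.16). Srgn differed by 0.52 (SE 0.22), Nkg7 by 0.22 and Gzmb by -0.00, none called. The Gzma call was lost when any 1 of the 6 arrays was left out and when only the groups compared were fitted. The Prf1 call was lost without MigR1-DMSO replicate 3, DNMAML-DMSO replicate 2 or DNMAML-DMSO replicate 3.

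In DNMAML against MigR1 with GSI given to both, 1 of 6 members was called, beside 0.191% of all genes: Cpa3, higher by 1.88 (SE 0.26). Gzma differed by 0.26 (95% interval 0.03 to 0.49) and Prf1 by -0.05 (95% interval -0.39 to 0.28), neither called.

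ICN1 and R1984A were each compared with MigR1 with GSI given to both, and both comparisons share the MigR1-GSI arrays. This contrast does not measure a return to the untreated level: Cpa3 averaged 5.23 in ICN1-GSI and 6.99 in MigR1-DMSO. In ICN1 cells 2 of 6 members were called, beside 2.35% of all genes: Cpa3 differed by -2.33 (SE 0.26) and Prf1 by 1.47 (SE 0.16). In R1984A cells 2 of 6 were called, beside 1.36% of all genes: Cpa3 differed by -1.47 (SE 0.26) and Prf1 by 0.94 (SE 0.16). Srgn differed by 0.65 and 0.62 in the same comparisons, not called in either. Gzma differed by -0.22 and -0.13, and Gzmb by -0.29 and -0.11, also not called.

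In DMSO the same constructs gave 2 of 6 members called for ICN1, beside 0.727% of all genes, with Cpa3 at -1.66 (SE 0.26) and Prf1 at 1.07 (SE 0.16). With the replicate number as a block Srgn, which differed by 0.79, was called as well, 3 members in all. For R1984A 2 of 6 were called, beside 0.978% of all genes: Srgn was higher by 1.03 (SE 0.22) and Prf1 by 0.78 (SE 0.16). Cpa3 differed by -0.82 (95% interval -1.35 to -0.29), not called. The Srgn call was lost without MigR1-DMSO replicate 3 or R1984A-DMSO replicate 1 or 3, and the Prf1 call without MigR1-DMSO replicate 2 or R1984A-DMSO replicate 1 or 3. Fitting only the groups compared called neither.

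ICN1 and R1984A, which differ in dimerization, were set against each other directly. Notch1 averaged 7.32 in ICN1-GSI and 7.07 in R1984A-GSI, and 7.28 in ICN1-DMSO and 7.01 in R1984A-DMSO, neither difference called. The part of the Notch1 level in the differences below was not tested. Under GSI 0 of 6 members were called, beside 1.1% of all genes in limma. Cpa3 differed by -0.86 (95% interval -1.39 to -0.33) and Prf1 by 0.52 (95% interval 0.19 to 0.86). Cpa3 was called with array weights. In DMSO 0 of 6 were called, beside 0.963% of all genes. Cpa3 differed by -0.84 (95% interval -1.37 to -0.31) and Prf1 by 0.28 (95% interval -0.05 to 0.62).

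GSI itself was read within each construct. In MigR1 cells 0 of 6 members were called, beside 0.166% of all genes. Cpa3 differed by 0.57 (SE 0.26) and Prf1 by -0.50 (SE 0.16), neither called. For both genes the 3 arrays of one treatment did not overlap those of the other, but how many of all genes separate likewise was not counted. In DNMAML cells 0 of 6 were called, beside 0.00502% of all genes. In ICN1 cells the count was 0 of 6, beside 0% of all genes, and in R1984A cells again 0 of 6, beside 0% of all genes. Interaction terms, which set the GSI response against that of MigR1 cells, called 0 of 6 members for DNMAML, beside 0.00502% of genes. They called 0 of 6 for ICN1, beside 0.015%, and 0 of 6 for R1984A, beside 0.0251%. The Prf1 response differed by 0.68 (95% interval 0.20 to 1.15) between DNMAML and MigR1 cells and was not called.

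Further genes of the granule pathway were read from 6 lists: other granzymes, granule contents, transport and release, mast cell genes, regulators and killer cell receptors. Of 79 listed genes 76 were measured. The lists were chosen with earlier results of these data known, so their shares and p-values are no independent test. None of the 8 other granzymes had a group mean above the highest array median, whereas 11 of 12 transport genes did, with 7 of 11 contents, 4 of 15 mast cell genes, 7 of 12 regulators and 2 of 18 killer cell receptors.

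In DNMAML-DMSO cells 3 of 76 list genes were called, all higher, 3.9% of them beside 1.94% of all genes. The replicate block called 10, and 21 had an unadjusted p under 0.05 in the main fit. For neither count is the share over all genes given here, so neither can be set against the 1.94%. Kit, the receptor for stem cell factor and a mast cell and progenitor marker, was higher by 1.05 (SE 0.12, adjusted p = 2e-05). Runx3, a transcription factor of killer lymphocytes, was higher by 0.77 (SE 0.12, adjusted p = 0.0008). Il2rb, a subunit of the receptors for interleukins 2 and 15, was higher by 0.92 (SE 0.16, adjusted p = 0.0018), from 3.68 to 4.60, across the band of array medians. The median difference of the list genes was 0.01, that of all genes -0.00.

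In ICN1 against MigR1 under GSI 8 of 76 were called, 3 higher and 5 lower, 10.5% of them beside 2.35% of all genes, with a median difference of -0.05 against -0.01 over all genes. Among transport genes Sytl2, an effector of Rab27a, differed by -2.15 (SE 0.24, adjusted p = 4.1e-06), Rab27a, the GTPase that docks granules at the membrane, by -1.06 (adjusted p = 0.0019) and Lyst, the lysosomal trafficking regulator, by -0.94 (adjusted p = 0.0003). Kit differed by -0.93 (adjusted p = 2.4e-05) and Runx3 by -0.58 (adjusted p = 0.0079). Hpgds, the haematopoietic prostaglandin D synthase, rose by 2.37 (SE 0.38, adjusted p = 0.00043), from values of 5.24, 4.74 and 5.50 to 7.14, 6.97 and 8.48. ICN1-GSI replicate 3, the highest for Hpgds, was the lowest of that group for Cpa3, and ICN1-DMSO showed the same with 8.57 against 6.98 and 6.99. Hopx (0.66, adjusted p = 0.027), a homeodomain protein, and Serpinb6b (0.89, adjusted p = 0.047), a granule-protease inhibitor, were also higher. Hopx lost its call on leaving out any 1 of the 6 arrays, Serpinb6b without MigR1-GSI replicate 3 or any ICN1-GSI replicate, and Runx3 without MigR1-GSI replicate 1 or 2 or ICN1-GSI replicate 2. In a fit of only the groups compared Lyst, Runx3 and Serpinb6b were not called, nor was Serpinb6b with array weights.

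In R1984A against MigR1 under GSI 8 of 76 were called, 3 higher and 5 lower, 10.5% of them beside 1.36% of all genes. Sytl2 (-1.23, adjusted p = 0.0054), Rab27a (-0.87, adjusted p = 0.018), Lyst (-0.98, adjusted p = 0.00026) and Kit (-0.54, adjusted p = 0.017) were lower. Id2, an inhibitor of E proteins, rose by 0.99 (adjusted p = 0.00012), Hopx by 0.89 (adjusted p = 0.0026) and Serpinb6b by 1.31 (adjusted p = 0.0027). Gzmn, a granzyme of the dim list, differed by -0.38 (adjusted p = 0.047) with both group means, 2.78 and 2.39, below every array median, and its call ended on leaving out any 1 of the 6 arrays. Sytl2 lost its call without R1984A-GSI replicate 3, Rab27a without that array or MigR1-GSI replicate 1 or 2, and Kit without MigR1-GSI replicate 1 or 3 or R1984A-GSI replicate 2. In a fit of only the groups compared Hopx, Kit, Rab27a, Serpinb6b and Gzmn were not called, nor was Gzmn after a further quantile normalization.

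Between ICN1 and R1984A under GSI 2 of 76 were called, both lower in ICN1 cells, 2.6% of them beside 1.1% of all genes. They were Runx3 at -0.54 (adjusted p = 0.025) and Cd160, a receptor of killer and T cells, at -0.96 (adjusted p = 0.04). Each call was lost without ICN1-GSI replicate 2 or 3 or any R1984A-GSI replicate, and in a fit of only the groups compared. Array weights called 5 list genes and an intensity trend 4, with no share over all genes given for those fits. For DNMAML against MigR1 under GSI 2 list genes were called, 1 higher and 1 lower, 2.6% of them beside 0.191% of all genes. In DMSO ICN1 against MigR1 gave 3, 1 higher and 2 lower (3.9% beside 0.727%), R1984A against MigR1 gave 4, all higher (5.3% beside 0.978%), and ICN1 against R1984A gave 4, 1 higher and 3 lower (5.3% beside 0.963%). In MigR1 cells GSI called 0 of 76 list genes, beside 0.166% of all genes. At an unadjusted p under 0.05 there were 6, and the replicate block called 1, Kit, both without a share over all genes here. Tbx21 and Eomes, which drive cytotoxic genes in killer cells, and Gata2, a mast cell regulator, were not called in these comparisons. Tbx21 lay between 3.20 and 3.79 and Eomes between 2.78 and 3.69 over all arrays, below every array median, and Gata2 group means lay between 4.34 and 4.71.

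**Figure D4:**
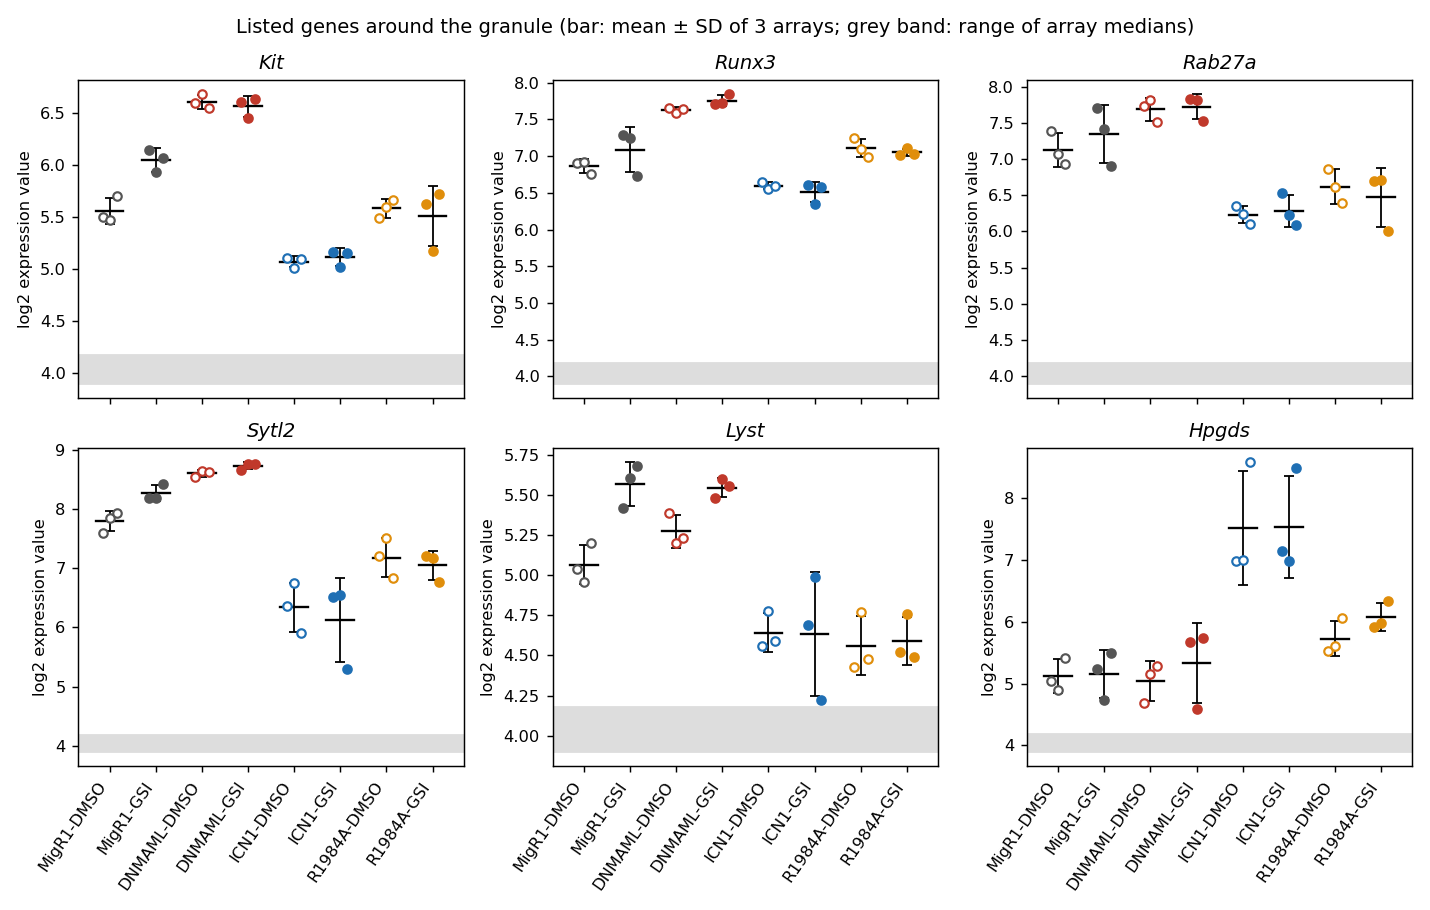
Log2 expression of Kit, Runx3, Rab27a, Sytl2, Lyst and Hpgds in the 8 groups, with 1 point per array, open for DMSO and filled for GSI, bars of the mean and SD of 3 arrays and a grey band for the array medians. Kit is highest in DNMAML cells and lowest in ICN1 cells, and Hpgds is highest in ICN1 cells.

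The genes whose 8 group means followed the members most closely were named from 499 genes with a span of at least 1 log2 unit. This is a description, since all genes are read on the same arrays and only 8 means enter each r. Cpa3 was most like Rcbtb2 (r = 0.997), S100a4 (0.997), Myh10 (0.995), Ednrb (0.995) and Tead1 (0.995), and most opposite to Cdh1 (-0.977), Agfg1 (-0.972) and Rundc3b (-0.969). With Gzma its r was 0.967, with Kit 0.983, with Prf1 -0.94 and with Nrarp -0.929. Prf1 was most like Jag1 (r = 0.99), Pld1 (0.988), Cdh1 (0.987), Abcb1b (0.987) and Rbms1 (0.986), and most opposite to Elfn2 (-0.988), Ccr9 (-0.988) and Sox13 (-0.978), and its r with Nrarp was 0.976. Cdh1, a cell adhesion gene, thus stood in both lists, at opposite ends. Srgn, with the narrower span, was most like Ppp1r9b (r = 0.957), Enc1 (0.944), Fyb (0.912), Plcl1 (0.9) and Rras (0.886), and most opposite to Lyst (-0.734), Tubb3 (-0.712) and Tet1 (-0.671).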

How the data were processed

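RNA of 24 T6E samples was measured on Affymetrix Mouse Gene 1.0 ST arrays. The authors deposited log2 expression values per probe set, and per the submitters' processing notes the tools were oligo and limma (versions not given). Background correction, normalization and summarization are not given in the sources used here, and the log2 scale was read from the values, 1.28 to 13.47. Of 35556 probe sets 21789 had 1 gene symbol, 1621 several and 12146 were unnamed in the annotation used here, and 21698 of those with 1 symbol matched RefSeq. Where several probe sets named a gene, as for 999 genes, the one of highest mean was taken, leaving 19938 genes with no filter on dim signals.

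Differences were fitted with limma 3.58.1 (R 4.3.3) on all 24 arrays, each group having its own mean, with 16 residual and 6.56 prior degrees of freedom, two-sided moderated tests and Benjamini-Hochberg adjustment over all genes, called at an adjusted p under 0.05. The fit was tested on simulated data. The number of arrays limits the precision, and p-values measure only the spread between the samples of a group. The members, lists, tests and alternatives were chosen with earlier results of these data known. Named were the 6 members, up to 4 called genes per list and main comparison, Runx3, Tbx21, Eomes, Gata2 and Kit whatever their value, Notch1 and Nrarp as checks, and for members with a span of at least 1 the 5 most and 3 least alike genes.

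The sample titles number the samples of a group. Samples of the same number deviated together with correlations over 0.1 for every pair for GSI in MigR1 cells (lowest 0.158) and in DNMAML cells (0.168), for DNMAML against MigR1 in DMSO (0.114) and under GSI (0.225), and in DMSO for ICN1 (0.144) and R1984A (0.203) against MigR1 and ICN1 against R1984A (0.194). For these the replicate block stands beside a member count, or a list count where computed, that it changes. For the others the samples numbered 2 correlated least, at -0.0624 to 0.0777, and those numbered 1 and 3 at 0.265 to 0.574, so not every pair shows a pairing there, and the block values are given with the alternatives only. Alternatives were another probe set per gene, a further quantile normalization, an intensity trend, array weights, a filter on dim genes, the replicate block, only the groups compared, and leaving out each array. List counts under alternatives were computed only for GSI in MigR1 cells, DNMAML in DMSO, ICN1 or R1984A against MigR1 under GSI, and ICN1 against R1984A under GSI.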

Additional observations from a re-analysis of the deposited data

Results flagged for a closer look

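Gzmn, a granzyme of the listed genes, was picked out because GSI moved its 3 arrays one way in MigR1 cells and the other way in DNMAML and R1984A cells, without overlap between treatments. Its response to GSI was lower than that of MigR1 cells by a difference of -0.43 in DNMAML cells and -0.34 in R1984A cells, on the log2 scale. In the interaction terms of the limma fit neither was called (adjusted p = 1.0 for both), and both had an unadjusted p under 0.05. The p-values of Gzmn given here use the arrays that picked it out, so they lend the shift no separate support. In the direct comparison of DNMAML with MigR1 cells under GSI, Gzmn was called at -0.52 (adjusted p = 0.017), and that call was lost in a fit of only the groups compared (adjusted p = 0.56) and on leaving out any array of these groups other than MigR1-GSI replicate 3 (adjusted p up to 0.12). All 24 values lay between 2.15 and 2.89, below every array median.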

How the results depend on the processing

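Over 72 pairs of a member and a comparison 12 were called, beside 0% to 2.35% of all genes per comparison. Of these calls 8 were kept in every fit. The comparisons share arrays and the members were chosen on these values, so the kept calls are a description and no test. Among 1263 alternative values of the members, which include the interaction terms, 0 turned direction with a call. Turns without a call were not counted, as for Srgn with GSI in MigR1 cells, 0.12 in the main fit and -0.03 without MigR1-DMSO replicate 3. Some of the alternative values could not turn. Each member has 1 probe set, so the choice of another repeats the main value. The intensity trend, the dim filter, the replicate block and the fit of only the groups compared leave a difference as it is. The replicate block called 1 list gene for GSI in MigR1 cells, 10 for DNMAML in DMSO, 13 for ICN1 under GSI, and 6 list genes and 1 member, Cpa3, for ICN1 against R1984A under GSI, and it changed the member count elsewhere only for ICN1 in DMSO. For DNMAML in DMSO the list count was 5 with quantile normalization, 8 with array weights and 5 with only the groups compared. Fitting only the groups compared gave 5 list genes for ICN1 and 3 for R1984A under GSI, 0 for ICN1 against R1984A under GSI, and 0 members for R1984A in DMSO, where quantile normalization gave 1. For ICN1 against R1984A under GSI the intensity trend gave 4 list genes and array weights 5, with 1 member, again Cpa3. Leaving out 1 array gave 1 to 2 members for DNMAML in DMSO and 0 to 2 for R1984A in DMSO, and 5 to 7 list genes for ICN1 under GSI, 5 to 7 for R1984A under GSI and 0 to 3 for ICN1 against R1984A under GSI. The share of all genes called in each alternative fit is not given here, so these counts cannot be set against it. The cause of these shifts was not tested. The filter on dim genes dropped Gzmb, which then has no value. Signal near the array medians limits Nkg7 and Gzmb, and 3 arrays per group limit all differences.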
